A study of Homo sapiens with 12 samples.

Results

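Lenalidomide plus dexamethasone (LenDex) was added on top of the BET inhibitor CPI203, and the arrays of this triple treatment (Combo) were set against those of CPI203 alone. The comparison used 6 of the 12 arrays of the series, 3 Combo and 3 CPI203, chosen by their treatment labels and paired by cell line. The study measured transcripts in multiple myeloma cell lines labelled ARP1, JJN3 and RPMI-8226, with 1 array per line in each of 4 groups, so each line was present once in a group. CPI203 cells received 0.01 µM CPI203, and Combo cells received the same dose with 5 µM lenalidomide and 0.05 µM dexamethasone. Control cells received none of the 3 agents, and LenDex cells received the same doses of lenalidomide and dexamethasone without CPI203. Treatment lasted 6 h in each group, per the treatment protocol. Lenalidomide and dexamethasone were given only together, in the LenDex and Combo groups, so their separate shares of a change cannot be told apart. Where nothing in the labels tells of separate cultures, the spread behind each p-value of a comparison of groups is that between 3 lines on single arrays.

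Dexamethasone is a synthetic glucocorticoid that binds the glucocorticoid receptor NR3C1, which then enters the nucleus and raises or lowers the transcription of target genes, and glucocorticoids kill many lymphoid and plasma cells. Lenalidomide binds cereblon (CRBN), the substrate receptor of a ubiquitin ligase, and turns it on the lymphoid transcription factors IKZF1 and IKZF3, whose proteins are then degraded. CPI203 displaces BET proteins from acetylated chromatin and is known to lower MYC transcripts in myeloma cells.

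Levels were log2 probe set values, with 1 probe set per gene, and 15173 of 18239 genes passed a filter of log2 level 5 or more on at least 3 arrays. The array medians lay between 5.304 and 5.375. The arrays labelled JJN3 and RPMI-8226 went against their labels in part, with most B cell markers high and several plasma cell markers near the floor. Over 11 B cell markers the median level with CPI203 and with Combo lay between 9.81 and 9.92 for JJN3, between 9.28 and 9.44 for RPMI-8226, and between 5.22 and 5.54 for ARP1. With CPI203, 7 of 11 in JJN3, 8 of 11 in RPMI-8226 and 1 of 11 in ARP1 were at a log2 level of 7 or more. Not all followed: PAX5 read 7.0, 7.0 and 7.2 with CPI203 in ARP1, JJN3 and RPMI-8226. FCRLA (5.4 to 5.9) and CD24 (4.6 to 4.7) were low in all 3. The median of 15 plasma cell markers with CPI203 and with Combo was 7.46 to 7.77 in JJN3, 7.03 to 7.51 in RPMI-8226 and 11.35 to 11.45 in ARP1. The B cell antigen MS4A1 read 11.71 and 11.70 on the CPI203 arrays labelled JJN3 and RPMI-8226, and the plasma cell antigen SDC1 read 5.23 and 4.96, against 12.26 in ARP1. Other plasma cell markers were high there, with 9 of 15 at a log2 level of 7 or more in JJN3 and 8 of 15 in RPMI-8226 with CPI203, among them IRF4 (12.99 and 13.17), SSR4 (11.80 and 11.68), MZB1 (10.48 and 10.13) and XBP1 (10.43 and 10.30). MAF, for whose high expression both JJN3 and RPMI-8226 are known, read 5.43 and 4.79 there and 11.43 in ARP1. Whole arrays of JJN3 and RPMI-8226 correlated at 0.9684 to 0.983 across genes, and each correlated at 0.8866 to 0.9041 with ARP1. The names are used here as labels only, and results are also given without each line. Medians of T cell, NK cell, monocyte and fibroblast markers lay between 4.86 and 5.15 on the 6 arrays, those of erythroid and epithelial markers between 5.22 and 6.19. One erythroid marker, the fetal globin gene HBG1, was high, at 12.32, 13.19 and 8.43 with CPI203 in ARP1, JJN3 and RPMI-8226, and at 12.26, 13.25 and 8.53 with Combo. FBN1 of the fibroblast list read 7.64, 9.07 and 9.40 with CPI203 and 7.88, 9.13 and 9.56 with Combo. CD3D of the T cell list (7.33) and KRT8 and KRT18 of the epithelial list (7.72 and 9.19) were above 7 with CPI203 in JJN3 alone. The actin 3' minus 5' control difference was 0.32, 0.31 and 0.23 with CPI203 and 0.29, 0.41 and 0.39 with Combo.

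With Combo against CPI203, 7 of 15173 genes passed an adjusted p under 0.05 in limma (0.0461% of genes tested), 4 higher (0.0264%) and 3 lower (0.0198%). The 4 that rose were TSC22D3, CXCR4, FKBP5 and ZFP36L2, by 2.71-fold to 12.5-fold. The 3 that fell were YRDC, MARS2 and ZNHIT6, by 1.65-fold to 1.81-fold. Each moved the same way in 3 of 3 lines, and 1658 genes had an unadjusted p under 0.05.

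TSC22D3 encodes GILZ, a leucine zipper protein induced by glucocorticoids that restrains NF-kB and AP-1. Its log2 level was 7.53, 9.98 and 9.96 with CPI203 in ARP1, JJN3 and RPMI-8226, and 12.09, 13.22 and 13.11 with Combo. The 3 Combo arrays were all above the 3 CPI203 arrays, and ARP1 started lowest and gained most. The mean log2 difference was 3.65 ± 0.34 (SE, n = 3 lines), or 12.5-fold, with an adjusted p of 0.00437 in limma. Each SE given with a difference is that of the limma fit. It draws on the spread over all 12 arrays and 4 groups, not on the 3 line differences alone. CXCR4, the CXCL12 receptor that holds plasma cells in the bone marrow, read 8.10, 8.59 and 9.51 with CPI203 and 10.79, 11.55 and 11.72 with Combo. Again the groups did not overlap. The log2 difference of CXCR4 was 2.62 ± 0.20 (SE, n = 3 lines), or 6.14-fold, with an adjusted p of 0.00127 in limma.

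FKBP5 encodes an immunophilin that binds the Hsp90 complex of the glucocorticoid receptor and lowers its affinity for hormone. Its CPI203 levels were nearly equal over the lines, at 10.73, 10.66 and 10.70, and its Combo levels were 12.78, 12.77 and 12.32, lowest in RPMI-8226. The log2 difference was 1.92 ± 0.12 (SE, n = 3 lines), or 3.79-fold, with the smallest adjusted p of the comparison, 0.00051 in limma. ZFP36L2, an RNA-binding protein that speeds the decay of AU-rich transcripts, read 10.94, 9.41 and 9.54 with CPI203 and 12.02, 11.07 and 11.11 with Combo. Here ARP1 was the highest line in both groups and gained least, and every Combo array was above every CPI203 array. The log2 difference of ZFP36L2 was 1.44 ± 0.14 (SE, n = 3 lines), or 2.71-fold, with an adjusted p of 0.00437 in limma. All single-symbol probe sets of these genes had the same direction, from 2.62 to 2.99 over 4 probe sets for CXCR4 and from 0.41 to 2.69 over 6 for FKBP5.

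The genes that fell act in RNA modification, translation and ribosome assembly. YRDC makes the threonylcarbamoyl group placed on tRNAs that read codons starting with A. It read 9.96, 11.12 and 10.42 with CPI203 and 8.96, 10.47 and 9.49 with Combo, lower in each line, but with overlapping groups because the lines differed in level. YRDC fell by 0.86 ± 0.11 on the log2 scale (SE, n = 3 lines), with an adjusted p of 0.0406 in limma. MARS2, the mitochondrial methionyl-tRNA synthetase, read 9.59, 10.28 and 10.33 with CPI203 and 8.79, 9.50 and 9.58 with Combo, and its 2 groups of arrays did not overlap. It fell by 0.80, 0.78 and 0.75 in the 3 lines, with a mean fall of 0.78 ± 0.10 (SE) and an adjusted p of 0.0415 in limma. ZNHIT6, an assembly factor of box C/D small nucleolar ribonucleoproteins, read 9.05, 10.21 and 9.89 with CPI203 and 8.48, 9.39 and 9.11 with Combo. Its fall of 0.72 ± 0.10 (SE, n = 3 lines) had an adjusted p of 0.0473 in limma, and its groups overlapped. Over all genes tested, the 3 arrays of a group lay wholly on one side of the other 3 in 6.41%.

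Whether these genes passed the threshold depended on how the spread was estimated and on which arrays were in the fit. For ZNHIT6 it also depended on the probe sets and the normalisation. ZNHIT6 lost its call with the mean of a gene's probe sets and after cyclic loess. The direction of the 7 genes was the same in all 91 refits. Leaving out a line also lowered the residual degrees of freedom from 6 to 3. Without JJN3 none of the 7 genes was called, without RPMI-8226 only FKBP5 and CXCR4 remained called, and without ARP1 6 of the 7 remained, all but YRDC, among 103 genes called. Leaving out the JJN3 control array, which enters only the estimate of the spread, kept the 4 genes that rose and lost the 3 that fell. When JJN3 and RPMI-8226 were averaged into 1 sample per group, FKBP5 and CXCR4 kept their calls and the other 5 lost them, TSC22D3 and ZFP36L2 included. Without the cell line as a block FKBP5 alone was called, and with only the 6 arrays compared in the fit none was.

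**Figure D1:**
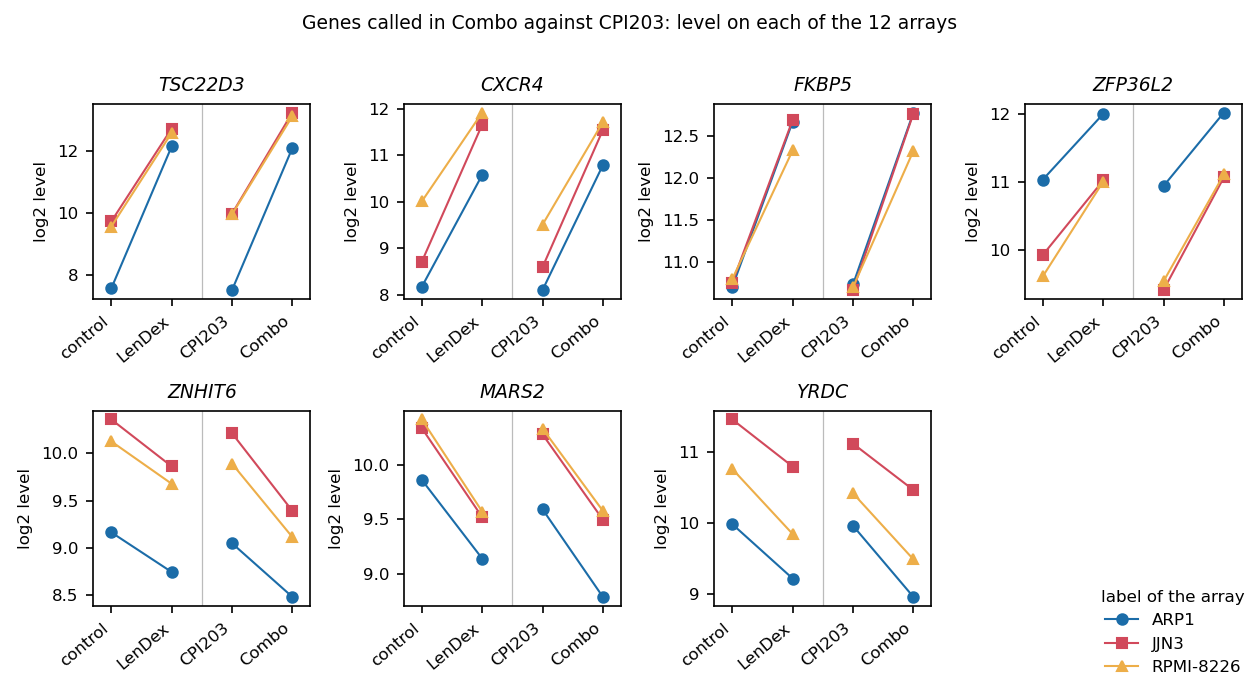
Log2 level of the 7 genes called in Combo against CPI203, on each of the 12 arrays. Lines join the 2 arrays of one cell line without and with LenDex, in the absence (left) and presence (right) of CPI203, and each gene moves the same way in all 3 lines on both sides.

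Promoter sequence was read for the called genes to set 3 of the genes that rose beside one that fell. Windows are the 250 bases before the gene start in RefSeq on GRCh38.p14, written 5′ to 3′ on the gene's strand: chrX:107775989-107776238 (minus) for TSC22D3, chr2:136118150-136118399 (minus) for CXCR4, chr6:35728584-35728833 (minus) for FKBP5 and chr2:197705119-197705368 (plus) for MARS2. Capitals mark the E-box CACGTG, a sequence bound by MYC and related factors.
TSC22D3: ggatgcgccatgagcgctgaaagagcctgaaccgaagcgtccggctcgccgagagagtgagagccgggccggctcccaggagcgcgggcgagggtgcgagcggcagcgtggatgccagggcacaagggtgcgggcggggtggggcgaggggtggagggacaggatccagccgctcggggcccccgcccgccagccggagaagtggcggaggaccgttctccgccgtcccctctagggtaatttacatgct
CXCR4: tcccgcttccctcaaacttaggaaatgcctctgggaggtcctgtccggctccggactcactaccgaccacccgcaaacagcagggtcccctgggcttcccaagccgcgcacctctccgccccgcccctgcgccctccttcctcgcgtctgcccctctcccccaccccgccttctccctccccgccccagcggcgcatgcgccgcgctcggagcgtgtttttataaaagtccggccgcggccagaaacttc
FKBP5: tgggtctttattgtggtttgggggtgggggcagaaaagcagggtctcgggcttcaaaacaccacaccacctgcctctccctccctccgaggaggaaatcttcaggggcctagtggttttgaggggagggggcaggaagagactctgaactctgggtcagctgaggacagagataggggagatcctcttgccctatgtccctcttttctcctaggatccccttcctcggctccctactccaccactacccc
MARS2: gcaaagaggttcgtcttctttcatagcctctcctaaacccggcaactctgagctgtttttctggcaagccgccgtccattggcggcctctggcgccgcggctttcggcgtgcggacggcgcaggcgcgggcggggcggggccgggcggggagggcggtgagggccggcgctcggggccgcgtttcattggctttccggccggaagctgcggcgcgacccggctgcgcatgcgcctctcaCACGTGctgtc
The glucocorticoid receptor half-site was searched as AGAACA and its reverse complement TGTTCT, and the E-box as CACGTG, which reads the same on both strands. Of 7 called genes, 6 had a window in the table, all but ZFP36L2. None of the 6 windows held the half-site letters, which 8.44% of 12193 windows of tested genes and 12.4% of all 27305 windows held. At such shares 6 windows are too few to set the called genes apart from other genes. Sites outside these 250 bases, or at another start of a gene, were not searched. One E-box lay in the MARS2 window, and 8.32% of tested genes' windows held one. Of 33 windows of glucocorticoid-induced genes 1 held a half-site, and of 34 windows of ribosome biogenesis genes 2 held an E-box.

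A further set was defined by size alone after the values were seen, and so has no test: genes with a 2-fold or larger difference in each of the 3 lines. There were 7 higher and 1 lower. Besides the 4 called genes, the higher ones were P2RX5, ZNF189 and ERAP2. P2RX5, an ATP-gated ion channel, read 8.32, 7.32 and 6.78 with CPI203 and 9.53, 8.68 and 7.88 with Combo, a log2 difference of 1.22 ± 0.17 (SE) with an adjusted p of 0.0512 in limma, just outside the threshold. ERAP2, an aminopeptidase that trims peptides for MHC class I, differed by 1.20, 1.20 and 1.18 in the 3 lines, nearly the same size in each, with an adjusted p of 0.124. The lower one was HMOX1, which breaks down heme and is a target of NRF2, at 9.98, 9.61 and 8.78 with CPI203 and 8.83, 8.24 and 7.44 with Combo. Its log2 difference was -1.29 ± 0.20 (SE, n = 3 lines), with an adjusted p of 0.0737 in limma. CRYBG1 (1.41, adjusted p 0.0512) also lay just outside the threshold, and ZNHIT6 just inside it.

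The same drug pair without CPI203 gave larger counts of calls in the fit of all arrays: LenDex against control called 70 genes (0.461%), 37 higher (0.244%) and 33 lower (0.217%). These 6 arrays share the cell lines and the estimate of the spread with Combo and CPI203, but no array. Without the JJN3 control array LenDex against control called 2 genes and Combo against CPI203 called 4. With JJN3 and RPMI-8226 averaged, each called 2. In the fit of all arrays 2079 and 1658 genes had an unadjusted p under 0.05 in limma. The counts of calls therefore do not rank the 2 responses. All 4 genes that rose with Combo against CPI203 were among the 37, and of the 3 that fell YRDC and MARS2 were among the 33. The differences were close in size, 3.51 against 3.65 for TSC22D3, 2.43 against 2.62 for CXCR4, 1.81 against 1.92 for FKBP5 and 1.15 against 1.44 for ZFP36L2, each on the log2 scale without and with CPI203. ZNHIT6 differed by -0.46 without CPI203 (adjusted p 0.0804 in limma) and -0.72 with it. Across all 15173 genes the 2 differences correlated at 0.6448, where genes are not independent replicates.

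Whether the response to LenDex differed with CPI203 present was tested by the interaction, the Combo minus CPI203 difference less the LenDex minus control difference. It called 0 genes (0%) in limma, with 472 at an unadjusted p under 0.05. For the called genes its 95% interval ran from -0.93 to 1.20 for TSC22D3, from -0.44 to 0.83 for CXCR4, from -0.28 to 0.50 for FKBP5, from -0.14 to 0.72 for ZFP36L2, from -0.42 to 0.26 for YRDC, from -0.30 to 0.33 for MARS2 and from -0.57 to 0.04 for ZNHIT6. The interval was widest for TSC22D3, and each of the 7 held 0. The 6 smallest p belonged to ZNF101 (-0.85), HIVEP3 (0.88), SEMA6A (0.72), VWCE (0.75), TEDC1 (0.60) and PDCL (-0.52), all with an adjusted p of 0.99966.

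**Figure D2:**
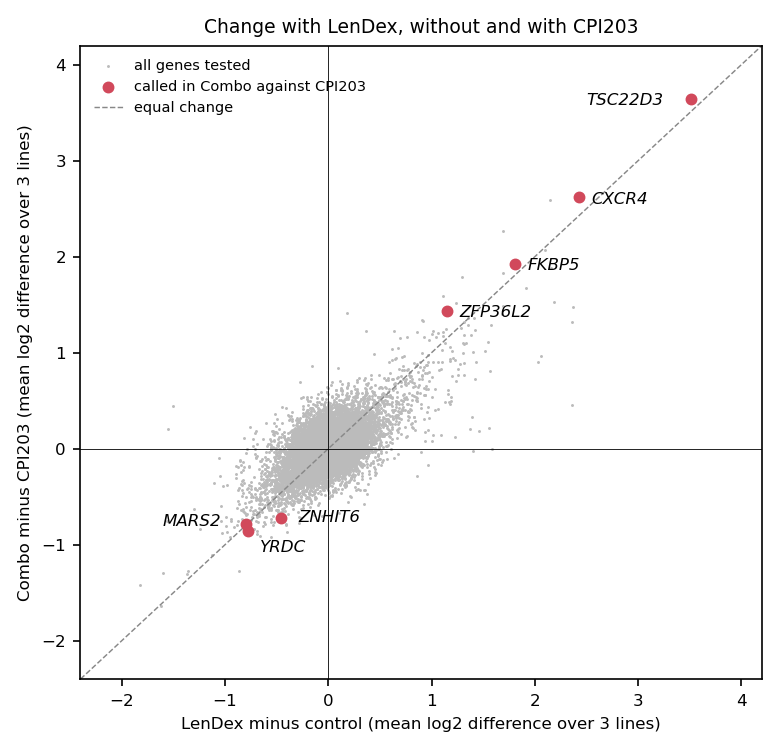
Mean log2 difference over 3 lines for LenDex against control (horizontal) and Combo against CPI203 (vertical) for 15173 genes, with the 7 called genes in red and a dashed line of equal change. The 4 genes that rose lie close to the dashed line, from 1.15 to 3.51 on the horizontal axis.

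Of 37 tested genes of a list known to be induced by glucocorticoids, TSC22D3, CXCR4 and FKBP5 rose, none fell and 34 were not called. Their log2 differences lay above 0 in 30 and below 0 in 7, with a median of 0.36 against 0.01 for all genes tested, and 17 of 37 were higher in 3 of 3 lines, against 18.9% of all genes. Without ARP1 the median was 0.20 with 5 members called higher, against 79 (0.521%) of all genes tested. Without JJN3 and without RPMI-8226 there were 0 and 2 members called, and 0 and 2 over all genes. By line the list's median was 0.48 (ARP1), 0.27 (JJN3) and 0.17 (RPMI-8226). Among members not called, DDIT4, an inhibitor of mTORC1 signalling, differed by 2.50, 0.89 and 0.82 in ARP1, JJN3 and RPMI-8226 (adjusted p 0.182 in limma), and TXNIP, which binds thioredoxin and limits glucose uptake, by 1.27, 0.67 and 0.63 (adjusted p 0.188). ISG20, an exonuclease, differed by 1.05, 1.33 and 0.77 (adjusted p 0.138). DUSP1, a phosphatase of MAP kinases, was lowest in the list at -0.56 (adjusted p 0.49).

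Of 18 tested genes of the glucocorticoid receptor and its co-factors, FKBP5 rose and 17 were not called, and 14 of the 18 lay below 0, with a median of -0.18. NR3C1, the glucocorticoid receptor, read 9.86, 10.70 and 10.91 with CPI203 and 9.72, 10.38 and 10.62 with Combo, slightly lower in each line, a log2 difference of -0.25 ± 0.11 (SE, n = 3 lines) with an adjusted p of 0.457 in limma. FOXO factors and their targets, which include genes of atrophy and cell cycle arrest, had 13 of 16 above 0 and a median of 0.34 with none called. The list's median was 0.52, 0.24 and 0.15 for ARP1, JJN3 and RPMI-8226, and 0.12 with ARP1 left out. Of its members, TXNIP (0.86) and TRIB1 (1.17) had the smallest p. In the list of lymphocyte migration receptors, CXCR4 rose and 18 of 19 were not called, with a median of 0.02.

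Ribosome biogenesis and RNA polymerase I genes, which make and assemble ribosomes, had no member called, but 41 of 42 lay below 0. With a variance trend and robust fit 8 of the 42 were called lower, against 55 of 15173 genes in that fit. With the mean of a gene's probe sets 1 of the 42 was, against 6 of 13765 genes. The median was -0.31, and 34 of 42 were lower in 3 of 3 lines, against 17% of all genes tested. By line the medians were -0.36, -0.34 and -0.20 in ARP1, JJN3 and RPMI-8226. POLR1B, the next-to-largest subunit of RNA polymerase I, differed by -0.58, -0.59 and -0.56 in the 3 lines (adjusted p 0.153 in limma), WDR12, a ribosome assembly factor, by -0.42, -0.79 and -0.72 (adjusted p 0.139), and PDCD2L by -0.58, -0.91 and -0.77 (adjusted p 0.149). In LenDex against control 6 of the 42 were called lower, WDR12, PDCD2L, POLR1B, PPAN, LYAR and WDR74, against 33 of 15173 genes (0.217%). Ribosomal protein genes themselves had a median of -0.01 over 25 genes, with none called and a range from -0.07 to 0.03. Of 35 aminoacyl-tRNA synthetases MARS2 fell and 34 were not called, with a median of -0.06, and of 24 genes of RNA polymerase III transcription none was called and 17 lay below 0.

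Lists of metabolic and stress genes had no called member in the fit of all arrays, but this depended on the variance model: with a variance trend and robust fit 4 NRF2 and antioxidant genes, 3 genes of the unfolded protein and integrated stress response and 1 cholesterol gene were called lower. The robust fit called 55 of 15173 genes lower in all. Without ARP1, 2 NRF2 and antioxidant genes were called lower and 4 genes of steroid and xenobiotic metabolism higher. Over all genes tested that fit called 24 lower (0.158%) and 79 higher (0.521%). Cholesterol synthesis had 14 of 16 below 0 with a median of -0.32, and MSMO1, a sterol oxidase, was lower in 3 of 3 lines (-0.34, -0.58 and -0.82, adjusted p 0.149 in limma). NRF2 targets and antioxidant genes had 18 of 20 below 0 with a median of -0.18, and next to HMOX1 came SRXN1, sulfiredoxin, at -0.89 ± 0.15 (SE, adjusted p 0.109). NF-kB subunits and targets had 15 of 24 below 0 with a median of -0.26. That median was -0.15 without ARP1, -0.17 without JJN3 and -0.35 without RPMI-8226. By line it was -0.09 (ARP1), -0.25 (JJN3) and -0.09 (RPMI-8226). NFKB2 differed by -0.48, -0.58 and -0.50 in the 3 lines (adjusted p 0.159 in limma). Genes of G2/M and mitosis had 21 of 24 below 0 with a median of -0.13. Their medians by line were 0.03 (ARP1), -0.12 (JJN3) and -0.30 (RPMI-8226), with ARP1 above 0, and the median without RPMI-8226 was -0.05. Among them was CCNB1 at -0.16, -0.62 and -0.89 (adjusted p 0.194). Of 18 BCL2 family genes none was called and the median was 0.08. BBC3, the pro-death protein PUMA, differed by 0.48, 0.51 and 1.17 (adjusted p 0.157), BCL2L11, which encodes BIM, by 0.88, 0.41 and -0.13 (adjusted p 0.671), and MCL1 by -0.02 (adjusted p 0.985).

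**Figure D3:**
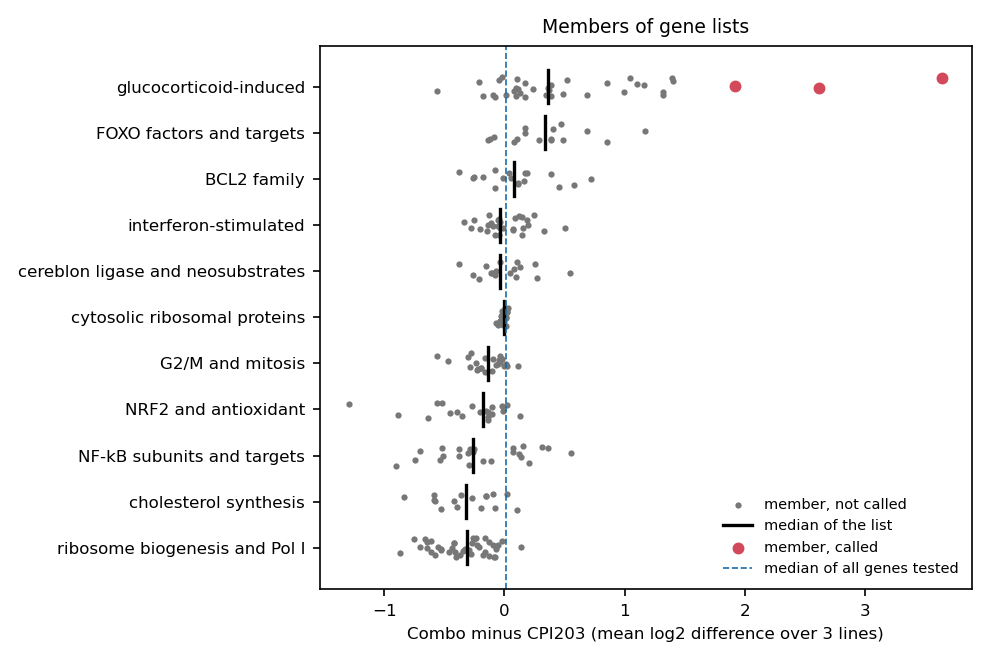
Mean log2 difference of Combo minus CPI203 for each tested member of gene lists, with the list median as a black bar and the median of all genes tested as a dashed line. The 3 called members stand apart at the right of the glucocorticoid-induced list, and 41 of 42 ribosome biogenesis genes lie left of 0.

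On the lenalidomide side, none of 17 tested genes of the cereblon ligase and its substrates was called, with a median of -0.04. IKZF1 read 9.64, 8.07 and 8.76 with CPI203 and 9.57, 7.94 and 8.84 with Combo, a log2 difference of -0.04 ± 0.26 (SE, n = 3 lines). IKZF3 differed by -0.41, -0.41 and -0.31, lower in each line, with an adjusted p of 0.529 in limma. Both are degraded as proteins, which arrays do not measure. IRF4, a plasma cell factor under their control, differed by -0.25, -0.01 and 0.13. MYC read 12.03, 11.61 and 10.74 with CPI203 and 11.64, 11.33 and 10.70 with Combo, with overlapping groups, and its log2 difference of -0.24 had a 95% interval from -0.56 to 0.09. CRBN (-0.08), PRDM1 (-0.13), HEXIM1 (-0.12) and BCL2 (-0.18) were not called. CDKN1A, the cell cycle inhibitor p21, was not called either (0.93), and differed by 2.32 in ARP1 and by 0.23 and 0.25 in the other lines. In ARP1 CDKN1A read 5.37 with CPI203, near the array floor, and 7.69 with Combo, against 7.18 in control and 8.09 with LenDex. Its LenDex minus control difference in ARP1 was 0.91. Interferon-stimulated genes had a median of -0.04 over 29 genes with none called. SLAMF7, a surface antigen targeted by an antibody given with lenalidomide and dexamethasone, read 9.39, 9.34 and 7.51 with CPI203 and 8.43, 7.17 and 6.83 with Combo. Its log2 difference of -1.27 ± 0.31 (SE, n = 3 lines) had an adjusted p of 0.182.

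**Figure D4:**
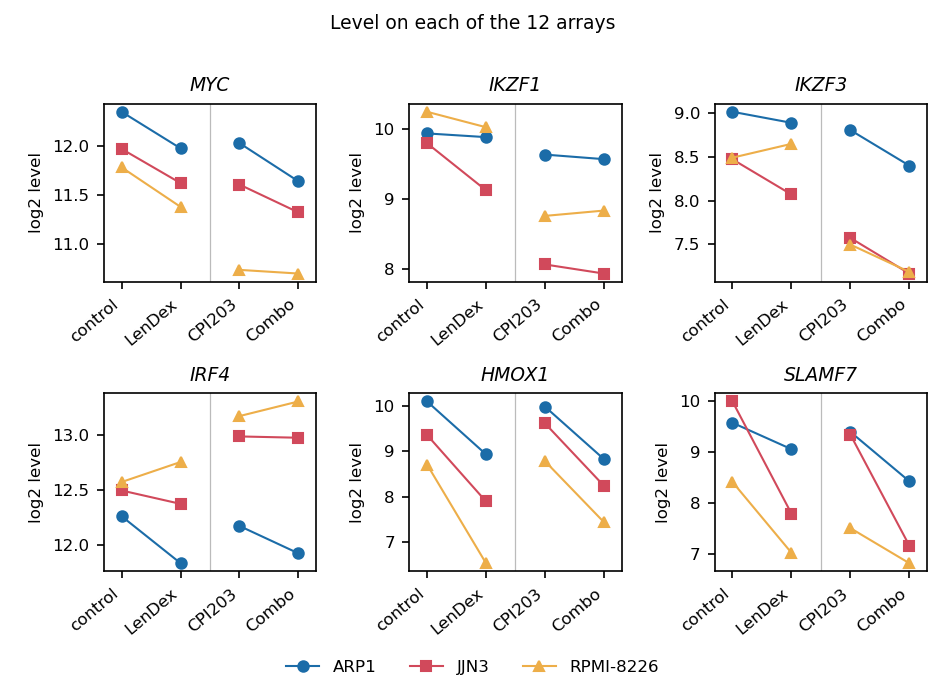
Log2 level of MYC, IKZF1, IKZF3, IRF4, HMOX1 and SLAMF7 on each of the 12 arrays, joined within a line as without and with LenDex, in the absence (left) and presence (right) of CPI203. HMOX1 and SLAMF7 are lower with LenDex in all 3 lines on both sides, and none of these genes was called in Combo against CPI203.

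The lines responded differently beyond the shared genes. Over all genes the Combo minus CPI203 differences of ARP1 correlated at 0.177 with those of JJN3 and 0.188 with those of RPMI-8226, and those of JJN3 and RPMI-8226 at 0.473, across genes that are not replicates. A moderated F test in limma of the line by LenDex terms, over both CPI203 backgrounds, called 56 genes (0.369%) at an adjusted p under 0.05, with 2071 at an unadjusted p under 0.05. The spread in this test is how far the LenDex difference within a line changed with CPI203, from single arrays and not from replicate cultures. In 29 of the 56 the Combo minus CPI203 difference was largest in size in ARP1, in 22 it was smallest in ARP1, and in 5 it lay between. Without the JJN3 control array the test called 0 genes. TSC22D3 was the 1 gene of the 7 called in Combo against CPI203 that the F test also called (adjusted p 0.0307).

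Genes with an ARP1 response included glucocorticoid targets. GLUL, glutamine synthetase, read 9.15, 10.11 and 10.51 with CPI203 in ARP1, JJN3 and RPMI-8226, and the Combo levels were 2.94, 0.52 and 0.49 higher, which took ARP1 from the lowest line to the highest at 12.09. ZBTB16, the transcription factor PLZF, read 5.02, 4.88 and 5.17 with CPI203 and 8.37, 4.97 and 5.05 with Combo, so that the ARP1 Combo array alone stood clear of the other 5. CD160, an immunoglobulin-like receptor of lymphocytes, differed by 3.08, -0.31 and 0.07. KLF9, a zinc finger transcription factor, differed by 2.43, 1.11 and -0.05. SOCS1, an inhibitor of JAK-STAT signalling, differed by 2.54, 0.71 and 0.93, and PIK3IP1, an inhibitor of PI3K, by 1.56, -0.26 and 0.17. MALT1, the paracaspase of NF-kB signalling, differed by 0.99, -0.52 and -0.15. The F test adjusted p of these 7 genes lay between 0.0121 and 0.0435 in limma.

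Other genes of the F test differed mainly on the JJN3 and RPMI-8226 arrays. CYTIP, a cytohesin-binding protein of lymphocytes, read 9.55, 5.94 and 5.68 with CPI203 and 9.02, 10.54 and 9.37 with Combo, so that RPMI-8226 came up to the level that ARP1 had in both groups and JJN3 went past it. The steroid-reducing enzymes AKR1C1 and AKR1C2 differed by -0.14, 1.67 and 2.92 and by 0.03, 1.93 and 3.04, and UGT2B15, which glucuronidates steroids, by 0.55, 3.15 and 2.51. In ARP1 these 3 genes were near the array floor in both groups, at 5.10 and 4.97, 5.03 and 5.06, and 5.01 and 5.56, so their ARP1 differences carry little information. AKR1C and UGT2B probe sets can pick up near-identical family members, so which member moved is uncertain. GPR183, an oxysterol receptor that positions B cells, read 4.85, 8.43 and 8.78 with CPI203 and 4.88, 5.90 and 6.38 with Combo, low in ARP1 throughout. IKZF2 (Helios) differed by 0.40, -1.10 and -1.06, and TBC1D9 by -0.19, 2.02 and 1.68. The F test adjusted p of these 7 genes lay between 0.0121 and 0.0454 in limma. The median of the B cell marker list was high on both of these lines' arrays and low in ARP1, as already stated. The part of these markers in the split was not tested.

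**Figure D5:**
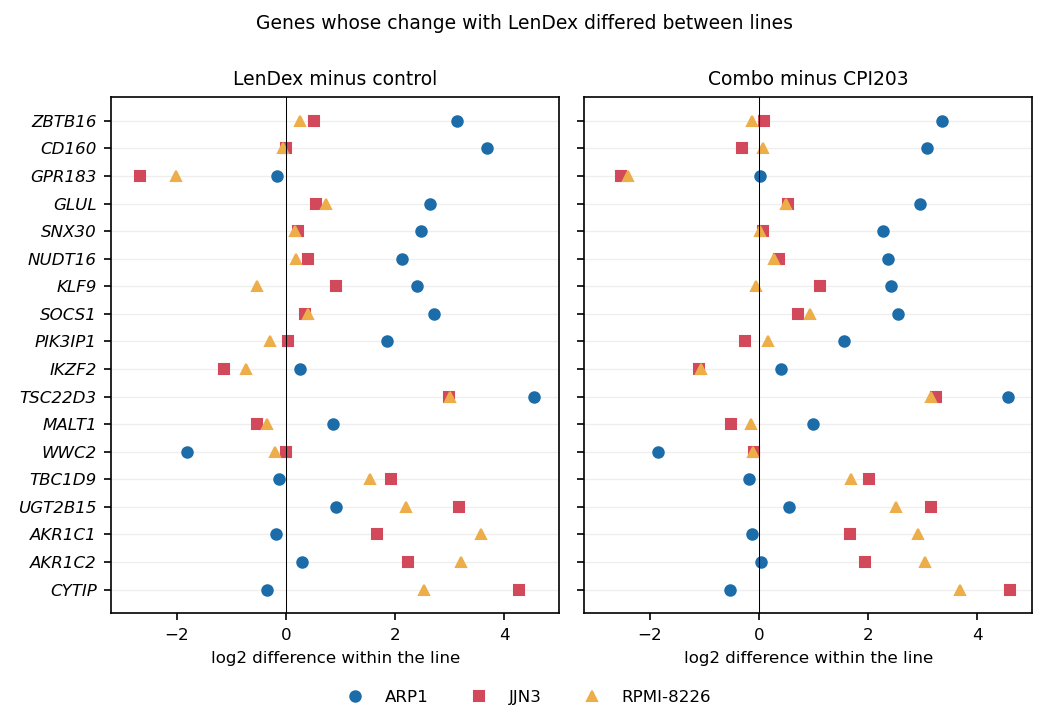
Log2 difference within each line for genes whose LenDex effect differed between lines, without CPI203 (left panel) and with it (right panel). JJN3 and RPMI-8226 lie close together and apart from ARP1 for most genes, as for GLUL (2.94 in ARP1, 0.52 and 0.49 in the others) and GPR183 (0.02, -2.53 and -2.41).

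With ARP1 left out, Combo against CPI203 called 79 genes higher (0.521%) and 24 lower (0.158%) in limma over the remaining arrays, 8 of the 12, with 3 residual degrees of freedom. These calls rest on 2 pairs of arrays from lines whose labels are in doubt and whose arrays resemble each other closely, so they may not be independent, and with ARP1 kept in, averaging them left 2 genes called. Of the 79, 58 were also above 0 in ARP1, where their median log2 difference was 0.24, against 1.22 on the other arrays. Of the 24, 18 were also below 0 in ARP1, with medians of -0.42 there and -1.04 on the others. TRIB1, a pseudokinase that brings C/EBP proteins to a ubiquitin ligase, rose by 1.53 (adjusted p 0.00596) and differed by 0.45 in ARP1. KLF6, a zinc finger factor, rose by 1.68 (adjusted p 0.00403, 0.51 in ARP1) and TIPARP, a target of the aryl hydrocarbon receptor, by 1.84 (adjusted p 0.0198, 0.28 in ARP1). HMOX1 fell by 1.36 (adjusted p 0.0314), with a difference of -1.16 in ARP1. Among NF-kB targets, LTA fell by 1.25, TRAF1 by 1.03 and CD83 by 1.06, and TNFAIP3, an inhibitor of the pathway, rose by 0.81, with adjusted p from 0.0108 to 0.0449 in limma and ARP1 differences from -0.22 to 0.05. The chemokine scavenger ACKR3 fell by 1.84 (adjusted p 0.00403) and the receptor P2RY10 by 1.81 (adjusted p 0.0235). The ribosome biogenesis genes WDR12, RRS1 and PDCD2L fell by 0.75, 0.74 and 0.84, with adjusted p from 0.0399 to 0.0491 and ARP1 differences of -0.42, -0.44 and -0.58.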

How the data were processed

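RNA of 12 samples was measured on single-colour Affymetrix arrays. The deposited values are on a log2 scale, read from the values, and were made by the authors with RMA, and the submitters' processing notes name Affymetrix Expression Console 1.1. Joint normalisation of all arrays is not given in the sources used here. RMA makes changes relative to the bulk of transcripts. Of 49386 probe sets, 93 were controls, and the platform annotation gave 1 symbol to 45253, several to 1327 and none to 2713. Symbols were updated through RefSeq for 45172 probe sets, and each of 18239 genes was given the single-symbol probe set of highest mean level.

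Genes were fitted in limma 3.58.1 (R 4.3.3) over all 12 arrays with cell line as a block and group as terms (6 residual degrees of freedom), with moderated two-sided tests (eBayes) adjusted by Benjamini-Hochberg over 15173 genes. The pairing is by cell line, as labelled, and deviations from group means correlated at 0.82 to 0.938 within a line. The same correlation between lines was not computed, so these values do not tell whether the labels are right. The line difference was a moderated F test with 3 residual degrees of freedom, which come from the LenDex difference within a line without and with CPI203. Calls used an adjusted p under 0.05. The fit was tested on simulated data. They had independent noise and the same change in each line, so line differences in response were not covered. The comparison, the gene lists, the panel and the marker lists were chosen with earlier results of these data known. Named genes were the up to 12 largest called rises and falls with the same direction in 3 lines, a panel, the called members or smallest p of each list, the smallest interaction p and the called genes with the smallest line F test p. Genes 2-fold different in each line, members of the line difference and of the fit without ARP1 outside this rule, and further list members, were picked with their values in view. The number of arrays limits the precision. Alternatives were the level filter, the choice of probe sets, the variance model, cyclic loess, the arrays in the fit, the block, averaging JJN3 with RPMI-8226, and leaving out arrays.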

Additional observations from a re-analysis of the deposited data

Results flagged for a closer look

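The effect of LenDex differed between the arrays of the 3 lines for 56 genes by the moderated F test in limma, over arrays with and without CPI203. The genes given here are those with the 10 smallest p and those in a gene list. The adjusted p was 0.0121 for CD160, AKR1C2, ZBTB16, SNX30, TBC1D9, AKR1C1, NUDT16, GLUL and GPR183. It was 0.0123 for WWC2, 0.0135 for KLF9 and 0.0152 for UGT2B15. It was 0.0307 for TSC22D3, 0.0309 for SOCS1, 0.0326 for MALT1, 0.0435 for PIK3IP1 and 0.0454 for IKZF2. SNX30 differed by 2.26 in ARP1 and by 0.07 and 0.02 in JJN3 and RPMI-8226, NUDT16 by 2.36, 0.37 and 0.27, and WWC2 by -1.85, -0.08 and -0.11, each as Combo minus CPI203 on the log2 scale. On the JJN3 and RPMI-8226 arrays with CPI203 and with Combo, SNX30 and WWC2 read 4.69 to 5.09, near the array floor. WWC2 could therefore hardly fall there. The cause of the line differences was not tested.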

How the results depend on the processing

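For Combo against CPI203 the count of 7 became 9 with no level filter and 7 (5 higher, 2 lower) after cyclic loess. It became 12 (9 higher, 3 lower) at a mean log2 level of 6 or more, 15 with the mean of a gene's probe sets, 36 with probe sets tested singly and 86 (31 higher, 55 lower) with a variance trend and robust fit. It fell to 0 with only the arrays of the groups compared (1900 at an unadjusted p under 0.05, 2 residual degrees of freedom), 1 with no replicate block, 2 with JJN3 and RPMI-8226 arrays averaged and 4 without the JJN3 control array, and ranged from 0 to 103 with a line left out. For LenDex against control the count of 70 became 137, 109, 287, 0, 1, 2 and 2 under the stricter level filter, the mean of probe sets, the robust fit, only the arrays compared, no replicate block, averaging, and without the JJN3 control array, and ranged from 0 to 298 with a line left out. The line difference of 56 genes became 88 with the mean of probe sets, 112 with probe sets singly, 471 with the robust fit, 0 without the JJN3 control array and 145 for ARP1 against the average of the others. The interaction called 0 genes under each alternative that was run. The 7 called genes kept their direction in all 91 refits and their call in 55. For FKBP5 the adjusted p ranged from 7.02e-07 to 0.187. Of 1110 refits of 87 named genes not called, 21 gained a call and 15 changed sign. The cause of these shifts was not tested, beyond the fewer arrays or genes that an alternative uses. Removing the JJN3 control array or a line also lowers the residual degrees of freedom, and signal near the array floor limits genes such as ZBTB16 and CD160 in JJN3 and RPMI-8226, and AKR1C1, AKR1C2, UGT2B15 and GPR183 in ARP1.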
